A study of Mus musculus with 6 samples.

Results

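Hba-a1 and Hba-a2, the adult alpha-globin genes of the mouse, were described here through their chromatin contacts in the mm9 build. Each gene was given a window of 4 kb on chromosome 11, chr11:32181001-32185000 for Hba-a1 and chr11:32194001-32198000 for Hba-a2, and a fragment belonged to a window when its midpoint lay inside. NlaIII cuts the Hba-a1 window into 14 fragments and the Hba-a2 window into 27, so that 41 of the 1002 fragments of the 180 kb region chr11:32070001-32250000 were members. Of the 41 members, 38 carried at least 1 contact, and the 3 that carried none were Hba-a2 fragments of at most 15 bases.

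The series holds Tri-C data, in which chromatin is cut, religated and captured so that single reads join a chosen viewpoint to 2 or more further fragments. Contacts were read from 2 viewpoints, the R2 enhancer and the promoter of Mpg, a DNA repair gene, in 3 WT and 3 D3839 replicates. All replicates were Ter-119+ erythroid cells, selected with magnetic beads from spleens of female C57BL/6 mice that had been given phenylhydrazine, an agent that destroys red cells, in 3 doses of 40 mg/g set 12 hours apart, with harvest after 5 days. D3839 mice lack the binding motifs of the insulator protein CTCF at the 2 sites HS-38 and HS-39, upstream of the enhancers, and WT mice carry them. The ages of the mice are not given in the sources used here. The library kit differed between WT (NEBNext Master Mix) and D3839 (NEBNext Ultra II), so that kit and genotype cannot be told apart in any comparison between them.

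Hba-a1 and Hba-a2 both encode the alpha chain of adult haemoglobin and are duplicated copies on the same strand. In erythroid cells they are switched on by a cluster of enhancers, R1, R2, R3, Rm and R4, that lies upstream within and beside the gene Nprl3. Hba-x, the embryonic zeta-like globin gene, lies between the enhancers and Hba-a1, and the theta-like globin genes Hbq1b and Hbq1a each follow one of the adult copies.

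In GENCODE vM1, Hba-a1 (ENSMUSG00000069919.6) runs from 32183511 to 32184465 and Hba-a2 (ENSMUSG00000069917.6) from 32196489 to 32197301, both on the plus strand of chromosome 11. The copies are so alike that 9 fragments of one window have a counterpart in the other with an identity of 94.4% or more, and no other pair of fragments between the windows exceeded 63.2%. The 9 counterparts form an unbroken stretch of 1698 bases in Hba-a1 and 1680 bases in Hba-a2 that holds the promoter, the whole coding part and the first bases of the downstream flank. In 6 of the 9 pairs the copies were identical letter for letter, so that no base in them tells one copy from the other.

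The promoter itself was among the bases that cannot be told apart. The 200 bases before the Hba-a1 start given by RefSeq and the matching bases of Hba-a2, chr11:32196289-32196488 on the plus strand, held 0 differences, and the Hba-a2 sequence is shown because both genes share it, with the matches to 3 motifs in capitals:
Hba-a2 promoter: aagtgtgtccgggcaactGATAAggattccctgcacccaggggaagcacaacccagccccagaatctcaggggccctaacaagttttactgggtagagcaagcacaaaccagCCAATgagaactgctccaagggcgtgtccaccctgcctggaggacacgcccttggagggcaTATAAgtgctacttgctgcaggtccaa
Both strands were searched, and all matches lay on the plus strand. In Hba-a1 the match to GATAA, the core that GATA factors recognise, began 182 bases before the RefSeq start. The match to the promoter motif CCAAT began 88 bases and the match to the TATA motif (TATAA) 27 bases before it. The motifs do not overlap. The GENCODE start of Hba-a1 lies 161 bases further upstream, so that CCAAT and TATAA fall inside the gene as annotated there. Among 32851 mouse promoters of RefSeq (GRCm38.p6), the 200 bases before the start held the GATA core on either strand in 18.1%, the CCAAT motif in 29.3%, the TATA motif in 18.5% and all 3 in 1.64%. A match describes letters and not a bound site.

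Downstream of each gene, the fragment of 31 bases, chr11:32184494-32184524 in Hba-a1 and chr11:32197311-32197341 in Hba-a2, was identical in both copies, and it is shown as the shortest such member:
Hba-a1 and Hba-a2, 31 bases: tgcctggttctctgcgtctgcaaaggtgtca
The next fragment, of 36 bases, differs by the substitutions T16C and C19T, with the Hba-a1 base first and positions counted from its 5′ end on the plus strand. Both copies of it are shown, with the differing bases in capitals, because it is one of the few short stretches of the pair that can tell the genes apart:
Hba-a1, chr11:32184525-32184560: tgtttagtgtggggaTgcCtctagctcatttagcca
Hba-a2, chr11:32197342-32197377: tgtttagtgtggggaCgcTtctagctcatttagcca

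Contacts with a member made up a large part of the data from R2 and a smaller part from Mpg. From R2, 18.9% to 22.4% of the region's contacts had an end in a window in WT and 16.5% to 18.6% in D3839. From Mpg these shares were 4.13% to 8.16% in WT and 6.80% to 7.94% in D3839. The region held 8651 to 16115 contacts per replicate from R2 and 10237 to 18951 from Mpg. It took 46.0% to 48.2% of all chromosome 11 contacts in WT and 63.1% to 66.9% in D3839 from R2, and 32.8% to 41.2% against 49.4% to 53.8% from Mpg. The total thus differed between the genotypes.

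The first question was whether the copies are contacted alike. Every contact has 2 ends besides the viewpoint, and ends were counted per window. From R2, Hba-a1 held 1275, 1306 and 2060 ends in the WT replicates and 2178, 1639 and 1947 in D3839, and Hba-a2 held 1467, 1603 and 2438 in WT and 2365, 1871 and 2344 in D3839. Hba-a2 was the higher of the pair in 6 of 6 replicates, with a log2 ratio of 0.22 ± 0.06 (SD, n = 6), or 1.16-fold (exact sign-flip test, two-sided, p = 0.03125, the smallest that 6 replicates allow). From Mpg, Hba-a1 held 418, 225 and 867 ends in WT and 759, 895 and 860 in D3839, against 835, 436 and 1295 and 1061, 1215 and 1140 for Hba-a2. Hba-a2 was again higher in 6 of 6 replicates, with a log2 ratio of 0.64 ± 0.26 or 1.56-fold (exact sign-flip test, p = 0.03125). Adjusted over the 2 viewpoints, both p-values stayed at 0.03125. The Mpg ratios of the WT replicates, 0.58 to 1.00, lay above those of D3839, 0.41 to 0.48.

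The size and even the sign of this ratio depended on the fragments, the window, the scale and the contacts counted. From R2 it was -0.068 with the gene and 1 kb on each side as window, and -0.56 as ends per fragment. Without contacts inside a 1 kb bin it was 0.11 and no longer passed (exact sign-flip test, p = 0.0625). From Mpg the same 3 settings gave 0.30, -0.13 and 0.34. Over the 6 identical fragment pairs the log2 ratio was -0.02 ± 0.04 from R2 and -0.04 ± 0.07 from Mpg (SD, n = 6). Over all 9 near-identical pairs it was -0.07 ± 0.03 and 0.11 ± 0.21. No base in the 6 identical pairs tells the copies apart, so their ratio cannot show whether the genes are contacted equally there. As counted, the excess of Hba-a2 lay mostly in the copy-specific fragments, 5 in Hba-a1 and 15 in Hba-a2, which cover 2.42 kb and 2.38 kb. There the ends per kb gave a log2 ratio of 1.03 ± 0.27 from R2, or 2.04-fold, and 2.07 ± 0.87 from Mpg, or 4.19-fold. All 6 replicates were above 0 from both viewpoints. As ends per fragment, however, the copy-specific ratio from R2 was -0.58 ± 0.27, below 0 in 6 of 6 replicates. Hba-a2 has more and shorter fragments over about the same length. From Mpg it was 0.46 ± 0.87, with 3 replicates above 0, and those 3 were the WT ones. From R2 the order of the copies thus turned between these scales.

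**Figure D1:**
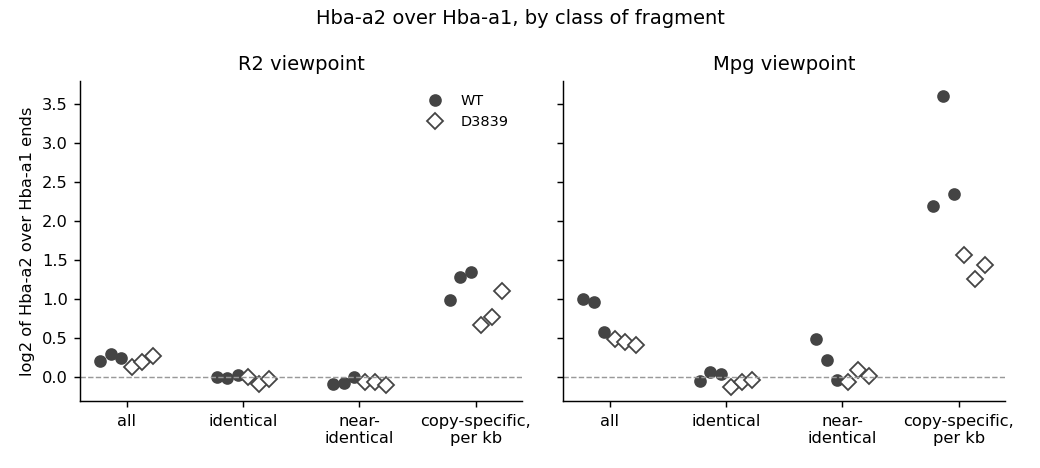
Log2 of Hba-a2 over Hba-a1 contact ends in each replicate (filled circles, WT; open diamonds, D3839), from the R2 and the Mpg viewpoint, over all fragments, the identical pairs, all near-identical pairs, and the copy-specific fragments as ends per kb. The dashed line marks equal ends. Identical pairs lie at the line, with means of -0.02 and -0.04, and copy-specific fragments lie above it, with means of 1.03 and 2.07. No base in the identical pairs tells the copies apart, so their place at the line cannot show equal contact.

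Most near-identical fragments held similar counts in both copies. The fragment over the start, which also holds the promoter (chr11:32182975-32183707 in Hba-a1, 733 bases, and chr11:32195810-32196524 in Hba-a2, 715 bases), held 123 to 204 ends per replicate in Hba-a1 and 116 to 213 in Hba-a2 from R2. Summed over replicates, these were 902 and 885 ends, and from Mpg 347 and 356. These start fragments differ by 21 edits over their length, none of them in the 200 bases before the start. The 323-base fragment, which holds coding sequence and intron, had 1243 and 1247 ends from R2 and 460 and 432 from Mpg. The 92-base pair, with the substitution C13T, had 920 and 781 ends from R2 and 368 and 408 from Mpg. The 36-base pair was the least equal. Its fragments had 622 and 479 ends from R2, and from Mpg 165 and 348, where WT replicate 1 alone had 7 in Hba-a1 and 108 in Hba-a2. Without the 36-base fragments the window ratio was 0.25 from R2 and 0.62 from Mpg.

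**Figure D2:**
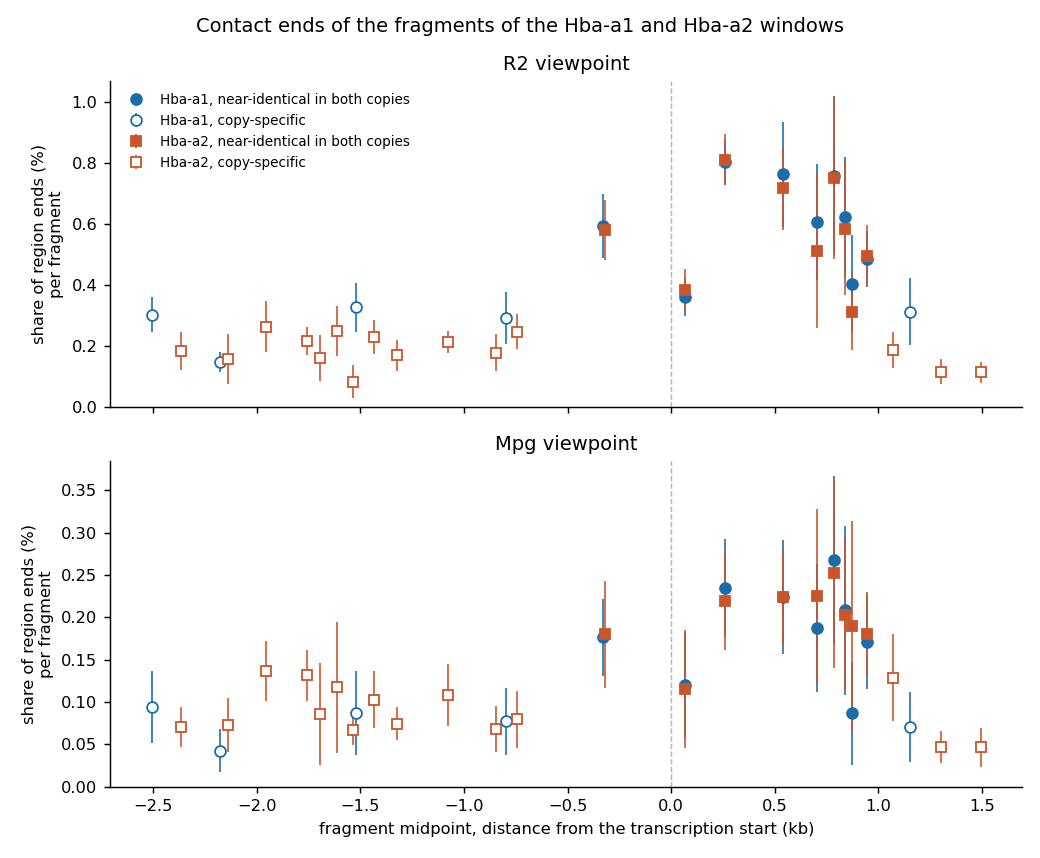
Share of the region's contact ends (in %) of each seen fragment of the windows against the distance of its midpoint from the transcription start (kb), from R2 and from Mpg. Points are means and bars SD over 6 replicates; circles are Hba-a1, squares Hba-a2, filled symbols near-identical and open symbols copy-specific fragments. Filled symbols of both genes lie close together for most pairs, with the widest gap from Mpg at the 36-base pair (165 against 348 ends), and from R2 every open symbol lies below the filled symbol of the start fragment.

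Contacts within and between the copies were then compared. For 2 near-identical fragments that are neighbours within a gene, the tables held contacts within one copy and contacts from one copy to the other, although the genes start 12.98 kb apart. From R2, contacts within a copy numbered 200 to 437 in WT and 220 to 349 in D3839, and contacts between the copies 195 to 448 and 242 to 369. The ratio of contacts between to contacts within the copies was 1.02 from R2, with replicates from 0.966 to 1.10, and 1.02 from Mpg, with replicates from 0.968 to 1.09. For fragments that are not neighbours it was 0.941 and 0.962. In these tables, these neighbouring stretches were therefore about as often paired with the other gene as with the adjoining bases of their own. How the aligner placed reads that match both copies is not given in the sources used here, and its part in these counts was not tested.

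**Figure D3:**
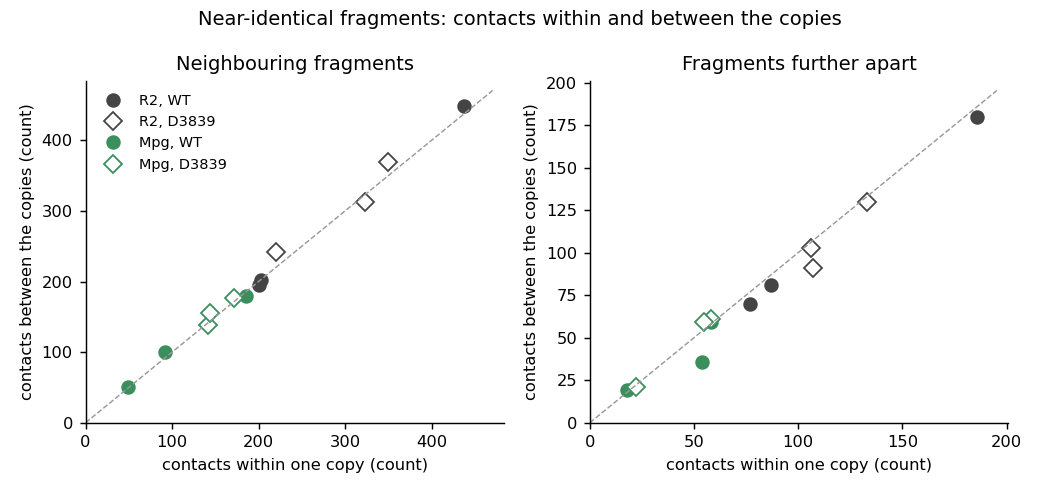
Contacts between near-identical fragments of different copies (vertical axis, counts) against contacts of the same fragments within one copy (horizontal axis, counts), one point per replicate and viewpoint, for neighbouring fragments (left) and fragments further apart (right). Filled circles are WT, open diamonds D3839, and the dashed line marks equality. Points follow the line, with summed ratios of 1.02 for neighbours from both viewpoints.

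Over all fragments, contacts joining Hba-a1 to Hba-a2 were the most numerous of those that link a window to another segment. From R2 they made up 4.82%, 5.44% and 6.35% of the region's contacts in WT and 4.73%, 3.85% and 3.996% in D3839, so that the groups did not overlap, as in 22.3% of the 309 tested pairs of segments. The difference of -1.34 percentage points did not pass an exact permutation test (two-sided, p = 0.1, the smallest that 3 against 3 allows, and 0.2 adjusted over both viewpoints). From Mpg they made up 1.64%, 1.12% and 2.19% in WT and 1.21%, 1.75% and 1.77% in D3839, with overlapping groups and a difference of -0.07 points (exact permutation test, p = 1). As shares of all chromosome 11 contacts the differences turned to 0.11 points from R2 and 0.18 from Mpg, higher in D3839. Most of these contacts had both ends on near-identical fragments, 78.9% to 92.1% from R2 and 83.2% to 92.2% from Mpg. Contacts with both ends on copy-specific fragments numbered 17, 25 and 21 in WT and 33, 38 and 25 in D3839 from R2. From Mpg they numbered 14, 1 and 11 in WT and 16, 19 and 12 in D3839. A further 39, 49 and 44 contacts between the genes in WT and 100, 70 and 111 in D3839 had 1 copy-specific end from R2. From Mpg these numbered 12, 8 and 49 in WT and 19, 24 and 26 in D3839. Summed over 6 replicates, copy-specific fragments of Hba-a2 met R1 with HS-29 230 times from R2, and the Mpg body 131 times from Mpg. Those sums require a copy-specific fragment at the Hba-a2 end only, and so cannot be ranked against counts with both ends copy-specific. On copy-specific fragments alone, contacts joining Hba-a1 to Hba-a2 were 0.155% to 0.289% of the region's total from R2. These shares lay above the 0.0186% to 0.0347% that a count of 0 would allow. From Mpg they were 0.00977% to 0.112%, and the 1 contact of WT replicate 2 lay below the 0.0293% that a count of 0 would allow there. The difference between the genotypes was then near 0 from R2 and 0.02 points from Mpg. Of all contacts between the windows from R2, 15.7% to 29.9% joined a fragment to its own counterpart. Among them the start fragments, which carry the promoters, were joined 49, 35 and 25 times in WT and 39, 40 and 41 times in D3839.

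The share of ends in each window was set against genotype and viewpoint. From R2, Hba-a1 took 6.70%, 7.55% and 7.95% of the region's ends in WT and 6.76%, 5.60% and 6.04% in D3839, with means of 7.401% ± 0.64 and 6.14% ± 0.59 (SD, n = 3 each). Hba-a2 took 7.71%, 9.26% and 9.41% in WT and 7.35%, 6.40% and 7.27% in D3839, with means of 8.80% ± 0.94 and 7.005% ± 0.53. The Hba-a1 values of the genotypes overlapped and those of Hba-a2 did not, as in 36% of the 25 segments. The differences of -1.26 and -1.79 points gave p = 0.2 and p = 0.1 in an exact permutation test (two-sided), and 0.4 each after adjustment over the 4 window comparisons. As shares of all chromosome 11 contacts, both turned to the other sign, 0.49 and 0.40 points higher in D3839. Neither direction can therefore be assigned to the genes apart from the total. Without near-identical fragments, the differences in share of the region's ends were 0.17 points for Hba-a1 and -0.34 for Hba-a2. Both gave p = 0.5 in the exact permutation test.

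From Mpg, Hba-a1 took 1.68%, 1.10% and 2.66% in WT and 2.00%, 2.47% and 2.38% in D3839. Hba-a2 took 3.35%, 2.13% and 3.97% in WT and 2.80%, 3.35% and 3.16% in D3839. Both sets overlapped, with WT spread more widely than D3839, and the differences of 0.47 and -0.05 points gave p = 0.4 and p = 0.9 (exact permutation test). As a share of all chromosome 11 contacts the Hba-a2 difference turned to 0.41 points. Leaving out WT replicate 2 gave differences of 0.115 points for Hba-a1 and -0.561 for Hba-a2, and leaving out WT replicate 3 gave 0.895 and 0.361. Between the viewpoints the windows differed in every replicate. The Hba-a1 share was 3.42-fold higher from R2 than from Mpg (log2 ratio 1.77 ± 0.57, n = 6), and the Hba-a2 share 2.55-fold higher (1.35 ± 0.41), each above 0 in 6 of 6 replicates (exact sign-flip test, p = 0.03125 each, also after adjustment over both genes). Both viewpoints were read in the same replicates.

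**Figure D4:**
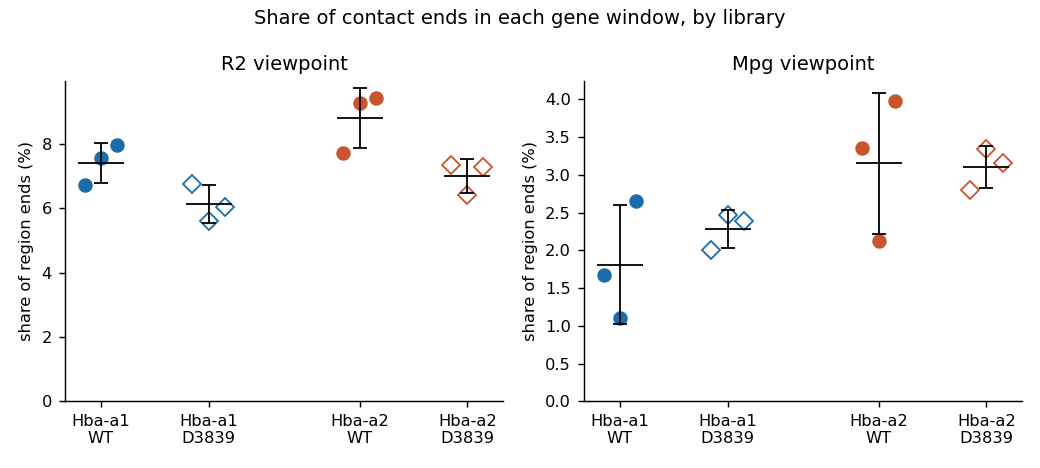
Share of the region's contact ends (in %) in the Hba-a1 and the Hba-a2 window, by genotype, from the R2 viewpoint (left) and the Mpg viewpoint (right). Points are replicates, with filled circles for WT and open diamonds for D3839; bars are means and SD of 3. From R2 the Hba-a2 shares of WT, 7.71% and above, lie above those of D3839, 7.35% and below, and in the other 3 cases the genotypes overlap.

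Among the 25 segments into which the region was divided, the alpha-globin windows ranked high per kb from R2. Over the 6 replicates, Hba-a2 held 1.98% ± 0.30 of ends per kb and ranked 3, after R2 itself and R3 with 2.10%, and Hba-a1 held 1.69% ± 0.22 and ranked 5. R1 with HS-29 lay between them at 1.80%. The differences of Hba-a2 from R3 and from R1, and of Hba-a1 from R1, were smaller than their own SD between replicates, with replicates on both sides of 0. The order also turned with genotype. In WT, Hba-a2 (2.20%) stood above R3 (2.13%) and Hba-a1 (1.85%) above R1 with HS-29 (1.75%), and in D3839 both Hba-a2 (1.75%) and Hba-a1 (1.53%) stood below R1 with HS-29 (1.84%). Hbq1b, ranked 6, was below Hba-a1 in 6 of 6 replicates. From Mpg, Hba-a2 held 0.78% ± 0.15 of ends per kb and ranked 8, and Hba-a1 0.51% ± 0.15 and ranked 11. Hba-a2 did not differ beyond the spread from the Rhbdf1 body, ranked 7, and was above Hbq1b, ranked 9, in 6 of 6 replicates.

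The gene body held the largest share of the ends of a window, except in Hba-a2 from Mpg. From R2, the 5 fragments of the gene body held 48.3% ± 3.4 of the ends of the Hba-a1 window and 39.9% ± 4.0 of those of Hba-a2 (SD, n = 6), and from Mpg 50.8% ± 2.0 and 33.0% ± 2.0. The upstream flank held 16.0% ± 3.7 and 29.9% ± 4.8 from R2 and 14.2% ± 5.0 and 35.8% ± 2.0 from Mpg, so that in Hba-a2 from Mpg it exceeded the gene body. The fragment of the promoter stretch, the 500 bases before the annotated start, held 8.85% ± 1.59 and 7.42% ± 1.33 from R2 and 8.80% ± 1.49 and 5.87% ± 1.94 from Mpg. The same 3 gene-body fragments, of 323, 239 and 71 bases, had the most ends in both windows and from both viewpoints. The 71-base fragment, over the end of the annotated gene, had 1143 and 1123 ends from R2 and led from Mpg with 523 and 490. On the scale of ends per fragment, the promoter fragment exceeded the mean of the other seen fragments in Hba-a2 from R2 in 6 of 6 replicates (log2 ratio 0.86 ± 0.30, exact sign-flip test, p = 0.03125, adjusted 0.0625) and in Hba-a1 from Mpg likewise (0.31 ± 0.27, p = 0.03125, adjusted 0.0625). It did so in 5 of 6 replicates for Hba-a1 from R2 (0.31 ± 0.32, p = 0.09375, exact) and for Hba-a2 from Mpg (0.44 ± 0.60, p = 0.09375, exact). None passed 0.05 after adjustment over these 4 tests. That outcome depended on the contacts counted. Without contacts inside a 1 kb bin the ratios were 0.64 (Hba-a1) and 1.28 (Hba-a2) from R2 and 0.61 and 1.06 from Mpg. Each then had p = 0.03125 in the exact sign-flip test, before adjustment.

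Per kb the order turned round. The promoter fragment held 205 ends per kb in Hba-a1 and 206 in Hba-a2 from R2, against 1066 and 1027 for the gene body. The log2 ratio of promoter over the rest was then -1.18 and -1.44 from R2 and -1.18 and -1.86 from Mpg, below 0 in all 4 cases (exact sign-flip test, p = 0.03125 each). The start fragment is longer than any gene-body fragment, at 733 and 715 bases against at most 323. The upstream flank, wholly copy-specific, separated the genes on this scale, with 129.4 ends per kb in Hba-a1 and 319 in Hba-a2 from R2, and 48.1 and 191 from Mpg. The Hba-a1 flank is cut into 4 fragments and the Hba-a2 flank into 12 that were seen.

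The partners of both genes were then followed along the locus, leaving out contacts within and between the windows. The enhancers R1, R3, Rm and R4 held 48.7%, 38.0% and 37.7% of the partner ends of Hba-a1 in WT from R2 and 38.1%, 33.3% and 37.6% in D3839. For Hba-a2 they held 42.0%, 42.2% and 34.4% in WT and 38.4%, 34.4% and 39.5% in D3839. Hba-a2 and Hba-a1 differed by -0.41 ± 3.92 points (n = 6, exact sign-flip test, p = 0.8125), less than the spread between replicates. From Mpg the same enhancers, again without R2, held 18.2%, 19.6% and 10.2% for Hba-a1 in WT and 8.77%, 11.2% and 9.73% in D3839. For Hba-a2 they held 15.7%, 17.1% and 5.82% in WT and 12.98%, 9.89% and 13.2% in D3839. The difference of Hba-a2 from Hba-a1 was -0.52 ± 3.52 points over all 6 replicates (exact sign-flip test, p = 0.71875). It was below 0 in each WT replicate, with a mean of -3.16. In D3839 it was above 0 in 2 of 3 replicates, with a mean of 2.11. Whether it differed between the genotypes was not tested. These signs hold for the sum without R2 only. The sign in WT replicate 1 also rested on R4, which held 10.9% of the Hba-a1 and 1.84% of the Hba-a2 partner ends there. Without R4 the difference over all 6 replicates was above 0. From Mpg, R2 alone went the other way in WT, with mean shares of 0.93% for Hba-a1 and 6.49% for Hba-a2. In D3839 the R2 shares were 3.88% and 3.25%. Over all replicates R2 differed by 2.47 ± 4.01 points, higher for Hba-a2 in 5 of 6 (exact sign-flip test, p = 0.21875). The sum with R2 was not tested. On copy-specific fragments alone the enhancer difference, without R2, was -4.19 points (exact sign-flip test, p = 0.5) from Mpg and 0.52 points (p = 0.875) from R2. A p above the threshold does not show that both genes meet the enhancers alike, and near-identical fragments entered both profiles.

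By single segments, and on the scale of partner ends per kb over all fragments, the R2 surroundings led from R2 with 5.44% for Hba-a1 and 6.04% for Hba-a2, of which only 2 kb were usable. The 2 kb between Hba-x and Hba-a1 held 3.36% for Hba-a1, second to R2, and 0.73% for Hba-a2. Among the named elements R1 with HS-29 held 2.73% and 3.06%, Hbq1b 2.504% and 2.48%, R3 2.28% and 1.91% and Rm 1.37% and 1.502%. R4 with the Nprl3 promoter was lower, at 0.94% and 0.85%. Hba-x, the embryonic gene, held 1.25% and 0.79%. Hbq1a held 1.06% and 1.73%. The upstream promoters were rare partners, with 0.16% and 0.15% for Snrnp25, a splicing factor gene, 0.18% and 0.32% for the promoter of Rhbdf1, which encodes an inactive rhomboid protease, and 0.19% and 0.25% for the Mpg promoter. Without WT replicate 1 the Rhbdf1 promoter values were 0.096% and 0.22%. Of the CTCF sites, HS-38/-39 with 0.39% and 0.35% and HS+44/+48 with 0.10% and 0.11% were rare partners too. HS-29 shares its segment with R1 and was not read apart from it. HS-38/-39, whose motifs D3839 lacks, held 2.42% of all Hba-a1 partner ends in WT and 0.67% in D3839. For Hba-a2 it held 1.66% and 1.14%.

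From Mpg, the 2 kb between Hba-x and Hba-a1 gave 3.19% per kb for Hba-a1 and 0.55% for Hba-a2. The Mpg promoter surroundings gave 2.72% per kb for Hba-a1 and 1.91% for Hba-a2, the Mpg body 1.90% and 1.88%, Hbq1a 1.87% and 1.85% and HS-38/-39 1.71% and 1.66%. The Rhbdf1 promoter gave 1.26% and 0.80%, Snrnp25 0.29% and 0.26%, and Hbq1b 1.32% and 1.69%. On the same scale Hba-x gave 0.98% and 0.59%, and HS+44/+48 0.16% and 0.20%. Among the enhancers R1 gave 0.72% and 1.12%, R2 0.48% and 0.97%, R3 0.61% and 0.58%, Rm 0.45% and 0.48% and R4 0.69% and 0.20%. Without WT replicate 2 the Rm value of Hba-a2 was 0.21%, and without WT replicate 1 the R4 value of Hba-a1 was 0.39%. For some partners the order of the copies turned with genotype, which was not tested. R2 held 0.93% of all Hba-a1 partner ends and 6.49% of those of Hba-a2 in WT, and 3.88% and 3.25% in D3839. Hbq1a held 12.9% and 10.1% of them in WT, and 5.76% and 8.44% in D3839.

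The copies had unlike partner shares in several segments, both beside them and further away. With copy-specific fragments only, the 2 kb between Hba-x and Hba-a1 held 14.9% of the Hba-a1 partner ends and 0.69% of those of Hba-a2 from R2, and 15.9% and 0.68% from Mpg. The 4 kb between Hbq1b and Hba-a2 held 1.81% and 6.68% from R2 and 1.37% and 5.12% from Mpg. Hbq1a, which follows Hba-a2, held 3.15% and 10.5% from R2, and Hba-x, on the other side of Hba-a1, 6.11% and 2.06%. Further away, the Mpg body held 0.88% and 2.16% from R2. From Mpg, the segment between HS-38 and R1 held 2.69% and 5.24%, the near downstream segment 3.48% and 10.1%, and the far downstream segment 0 of the 490 Hba-a1 partner ends, which allows a share of up to 0.612%, and a mean of 1.68% of those of Hba-a2, or 0.76% without WT replicate 1. Single replicates moved other low values. The Hba-a2 shares of the segment between Hba-x and Hba-a1 were 0.41% from R2 without D3839 replicate 2 and 0.40% from Mpg without D3839 replicate 1, and the Hba-a1 share of the segment between Hbq1b and Hba-a2 from Mpg was 0.65% without D3839 replicate 2. Each of these differences between the copies had the same sign in 6 of 6 replicates. Some of these signs rest on counts of 0. From Mpg, the far downstream sign in WT replicate 2 sets 0 of 15 Hba-a1 partner ends against 1 of 81 for Hba-a2. Such counts cannot order the copies. The segment between Hbq1b and Hba-a2 also had 0 Hba-a1 ends from Mpg in each WT replicate and in D3839 replicate 3. Of the 23 partner segments, 5 from R2 and 5 from Mpg reached p = 0.03125 in the exact sign-flip test, and none passed after adjustment over the 23 segments (lowest p 0.14375). R2 itself held 8.13% of copy-specific Hba-a1 partner ends and 13.3% of those of Hba-a2 from R2, higher for Hba-a2 in 5 of 6 replicates. These profiles rest on 1282 and 1709 partner ends over 6 replicates from R2 and on 490 and 1028 from Mpg.

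**Figure D5:**
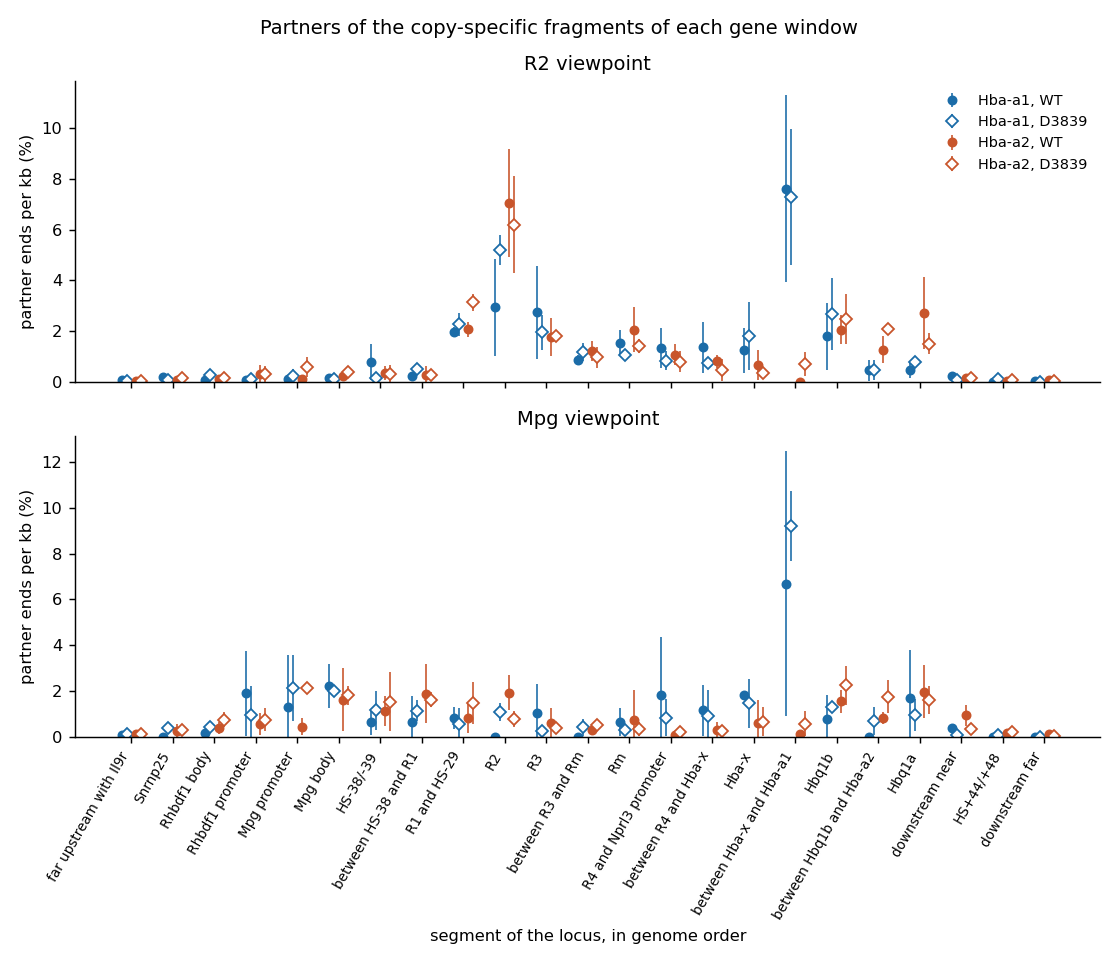
Partner ends per kb (in % of all partner ends) of the copy-specific fragments of Hba-a1 and Hba-a2 in each segment of the locus in genome order, from R2 (top) and Mpg (bottom). Points are means and bars SD of 3 replicates, filled circles for WT and open diamonds for D3839. The highest points are those of Hba-a1 for the segment between Hba-x and Hba-a1 from both viewpoints, and from R2 the R2 segment for Hba-a2.

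By the level of ends per kb over the 12 tables, the segment most like Hba-a1 was Hba-a2 (Pearson r = 0.99), followed by Hbq1b (0.97) and R3 (0.97). Hba-a2 was most like Hba-a1 (0.99), then the segment between Hba-x and Hba-a1 (0.95) and Hbq1b (0.94). These correlations are over 6 replicates from each of 2 viewpoints, and the split between the viewpoints enters each of them. Segments that split the other way gave a negative r, such as -0.98 for the Rhbdf1 body with Hba-a1. By partner profile over 23 segments, each copy was again most like the other, with r = 0.96 from R2 and 0.84 from Mpg. The near-identical fragments entered both profiles.

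Changes in D3839 were tested for all segment pairs of the region with edgeR's quasi-likelihood test and Benjamini-Hochberg adjustment over all pairs. From R2, 0 of 49 pairs with a window rose and 0 fell, where 0.971% of all 309 pairs were higher and 0.324% lower in D3839. Unadjusted, 1 window pair had p under 0.05 with a higher and 3 with a lower value, against 30 and 11 of all 309, and DESeq2 called 0 as well. Hba-a1 with Hba-a2 had the lowest adjusted p, 0.17, at a log2 fold change of -0.40 ± 0.15 (SE, edgeR). The contact of HS-38/-39 with Hba-a1 was counted 14, 12 and 6 times in WT and 8, 5 and 1 times in D3839. It had a log2 fold change of -1.83 ± 0.76 and an adjusted p of 0.204 by edgeR. The 1 higher pair, Hba-a1 with the Rhbdf1 body, was counted 3, 3 and 5 times in WT and 12, 23 and 19 in D3839. Its log2 fold change was 1.70 ± 0.73, with an adjusted p of 0.232 by edgeR. The median log2 fold change of the window pairs was -0.31, against 0.13 over all pairs, and with the chromosome 11 total as library size 0.15 against 0.58.

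From Mpg, 4 of 49 window pairs, or 8.16%, rose in D3839 by edgeR and 0 fell, where 7.99% of all 313 pairs were higher and 3.51% lower. The share of windows that rose was thus near that of all pairs. Hba-a1 with the Rhbdf1 body was counted 7, 0 and 8 times in WT and 41, 31 and 11 in D3839 (log2 fold change 1.99 ± 0.61, adjusted p = 0.0251, edgeR). Hba-a2 with the Rhbdf1 body was counted 5, 3 and 16 times and 32, 38 and 30 (1.62 ± 0.56, adjusted p = 0.0406, edgeR). For both genes every D3839 count lay above the highest WT count, for Hba-a1 narrowly in D3839 replicate 3, and 30.4% of all tested pairs had genotypes that did not overlap. Hba-a1 with the 2 kb before its window, the segment between Hba-x and Hba-a1, was counted 5, 5 and 3 times and 24, 25 and 23 (1.90 ± 0.63, adjusted p = 0.0337, edgeR). Hba-a1 with R2, the strong enhancer, was counted 2, 0 and 2 times and 6, 19 and 11 (2.61 ± 0.90, adjusted p = 0.04, edgeR). The same partners of Hba-a2 did not pass. Hba-a2 with R2 was counted 18, 10 and 10 times and 10, 12 and 16 (-0.53 ± 0.58, adjusted p = 0.606, edgeR). Hba-a2 with the 2 kb before the Hba-a1 window was counted 5, 2 and 1 times and 5, 5 and 0 (-0.23 ± 1.14, adjusted p = 0.938, edgeR). The difference between the copies in these changes was not tested.

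The 4 calls were not stable. With TMM normalization 0 window pairs rose and 1 of 49 fell, where 5.11% of all pairs fell. DESeq2 called 0 window pairs higher, where 2.92% of the 137 pairs with an adjusted p were higher, and only 15 window pairs, 1 of the 4 among them, had one. With the chromosome 11 total as library size 12 of 49, or 24.5%, rose, where 26.8% of all pairs did. Over all pairs the median log2 fold change was 0.48 in the fit and 0.08 with TMM, and relative to that median the 4 pairs were higher by less. Leaving out 1 replicate left 0 to 3 pairs, with 0 without D3839 replicate 1 or 2, 1 without D3839 replicate 3, WT replicate 1 or WT replicate 2, and 3 without WT replicate 3. Over all pairs these fits called 1 of 303, 1 of 301, 11 of 306, 12 of 309, 12 of 308 and 21 of 307 higher, in the same order. The log2 fold changes ran from 1.5004 to 2.37 and from 1.35 to 2.34 for the Rhbdf1 body with Hba-a1 and Hba-a2. For Hba-a1 they ran from 1.55 to 2.18 with the 2 kb before its window and from 2.12 to 3.03 with R2. All were above 0.

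Fragment by fragment, none of the 38 members passed in D3839 against WT by edgeR from either viewpoint. From R2, 0.13% of all 772 fragments were higher and 0% lower, and of the members 1 was higher and 8 lower at an unadjusted p under 0.05, against 37 and 50 of all 772. DESeq2 called 4 of the 21 members with an adjusted p lower, where 8.33% of the 84 fragments with one were lower. From Mpg, 1.6% of all 875 fragments were higher and 1.6% lower, and of the members 3 were higher and 0 lower without adjustment, against 80 and 117 of all 875, while DESeq2 called 1 higher, where 2.17% of all fragments were. The 1249-base fragment upstream of Hba-a1, chr11:32181525-32182773, came closest from Mpg, with 8, 7 and 21 ends in WT and 56, 42 and 46 in D3839 (log2 fold change 1.54, adjusted p = 0.081, edgeR). The start fragments had log2 fold changes of -0.17 for Hba-a1 and -0.13 for Hba-a2 from R2 and of 0.52 and 0.72 from Mpg, and none of the 4 passed the test.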

How the data were processed

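Tri-C was performed on 3 WT and 3 D3839 replicates. The authors trimmed and aligned the reads to mm9 (Trim Galore and Bowtie, per the submitters' processing notes), and processed them with CCseqBasic. Duplicate molecules, ligation artefacts and the capture targets of other viewpoints were filtered there, and each read counted joins the viewpoint to at least 2 fragments. The authors deposited raw, unnormalized counts of unique contacts for pairs of NlaIII fragments on chromosome 11, in 12 tables. All 88602 fragments named there matched an in-silico NlaIII digest of the NCBIM37 reference.

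Here, contacts with both midpoints in the region were kept, contacts in the 1 kb bin of the viewpoint or in its direct neighbours were dropped, and ends were summed per fragment, window and segment. Fragments of the windows were near-identical at 90% identity or more. Segments follow the study's locus map to the nearest kb. Segment pairs and fragments with at least 10 counts over the 6 replicates were fitted with edgeR 4.0.16 (R 4.3.3; library size, the region's total; adjusted p under 0.05; SE from the F statistic), with DESeq2 1.42.0 as an alternative. Counts were also simulated with 40 features changed 3-fold and the same preset spread for every feature. There edgeR recovered 19 of 40 segment pairs from R2 and 15 from Mpg, and 11 and 25 of 40 fragments, with 0 false calls. Changes of 3-fold can thus be missed. The spread was not taken from these data, so the 0 false calls give no error rate for the fits reported here. Single values were compared by exact permutation or sign-flip tests in Python 3.11.15 (two-sided; 3 against 3 allow no p below 0.1). Replicates are biological per the labels. Contacts of one read are not independent, and floors of 3 counts cover counting error only.

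Fragments named by rule were those over the start, the 3 with the most ends in each window and any past the test; partners named by rule were the other promoters, enhancers and CTCF sites. The fragments of 31, 36, 92 and 1249 bases, and the gene bodies and spaces between genes given as partners, were named after their values were seen. The members and lists were chosen with earlier results of these data known. Alternatives covered the fragments counted, the window, the totals, normalization, tool, filter, replicate block and leaving out each replicate.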

Additional observations from a re-analysis of the deposited data

How the results depend on the processing

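Depth limited the partner profiles, in which 490 copy-specific partner ends of Hba-a1 from Mpg were spread over 23 segments. Leaving out 1 replicate leaves 5, for which no exact sign-flip p can go below 0.0625, so that results at p = 0.0312 pass no test there by construction. Near-identical fragments could not be left out of the promoter comparison, because the promoter fragment is one of them, and taking the fragment over the annotated start chose the same fragment. The cause of the changes below was not tested.

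Without near-identical fragments, the Hba-a1 share from R2 turned to 0.17 points higher in D3839, the enhancer difference from R2 to 0.52 points (from Mpg it was -4.19), and the difference in Hba-a1 to Hba-a2 contacts from Mpg to 0.022 points. With the gene and 1 kb on each side as window, the R2 log2 copy ratio was -0.068, and as ends per fragment the copy ratios were -0.56 and -0.13. Of the alternatives added after the data had been seen (ends per kb, copy-specific ends per kb and per fragment, and leaving out the 36-base or all differing near-identical fragments), copy-specific ends per fragment gave -0.58 from R2 and, with p = 0.25 in the exact sign-flip test, 0.46 from Mpg. Without contacts inside a 1 kb bin the R2 copy ratio was 0.11 and no longer passed (exact p = 0.0625), and the promoter ratios with an unadjusted p of 0.09375 rose to 0.64 (Hba-a1, R2) and 1.06 (Hba-a2, Mpg), each at an unadjusted exact p of 0.03125. With each fragment pair counted once these were 0.75 and 0.92, and the Hba-a2 share from Mpg was 0.12 points higher in D3839. As shares of chromosome 11, D3839 was higher by 0.49 (Hba-a1) and 0.40 points (Hba-a2) from R2 and by 0.41 (Hba-a2) from Mpg, and contacts between the genes by 0.11 and 0.18 points. Promoter ratios per kb were -1.18 and -1.44 from R2 and -1.18 and -1.86 from Mpg. Without R4 the enhancer differences were 0.051 and 1.95 points.

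With the replicate block, the log2 ratios of R2 over Mpg kept their values, 1.77 and 1.35, at p = 0.25 (exact), and 0 window pairs rose from Mpg. The numbers did not pair the replicates, whose deviations from the group means correlated at -0.06 to 0.08 where the number was shared. DESeq2 also called 0 pairs from Mpg, though 3 of the 4 pairs had no adjusted p there. With 5 kb bins 1 of 83 window pairs was called from Mpg, where 24 of all 482 bin pairs were called in either direction. TMM gave 0 higher and 1 lower, and the chromosome 11 total 12 higher from Mpg and 1 from R2, where 84 of all 313 and 35 of all 309 were. Of the fragments, DESeq2 called 4 lower from R2 and 1 higher from Mpg, and the chromosome 11 total 1 and 5 higher, where 3.497% of all 772 and 11.8% of all 875 were.

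Leaving out each replicate, the copy ratios ran from 0.20 to 0.24 (R2) and 0.57 to 0.69 (Mpg), the R2 over Mpg ratios from 1.57 to 1.89 (Hba-a1) and 1.19 to 1.43 (Hba-a2), the promoter ratios from 0.26 to 0.43 and 0.80 to 0.96 (R2) and 0.25 to 0.37 and 0.32 to 0.65 (Mpg), and the share differences from Mpg from 0.11 to 0.90 (Hba-a1) and -0.56 to 0.36 (Hba-a2). The enhancer differences ran from -1.34 to 0.83 (R2) and -1.47 to 0.25 (Mpg), contacts between the genes from Mpg from -0.34 to 0.20, window pairs higher from Mpg from 0 to 3 and window fragments higher from Mpg from 0 to 1. The 1 fragment was called without WT replicate 3, where 20 of all 869 fragments were higher.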
